A study of Homo sapiens with 6 samples.

Results

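IGF2BP3 contacts were followed on the transcripts of 10 genes that write, erase or read N6-methyladenosine (m6A), the internal methylation of mRNA. The list held the writers METTL3, METTL14, WTAP, VIRMA and RBM15, the eraser ALKBH5, and the YTH readers YTHDF1, YTHDF2, YTHDF3 and YTHDC1. A cluster, a stretch of genome covered by crosslinked reads, was counted for a gene when it shared at least 1 nt with an annotated exon of that gene (GENCODE release 44) on the same strand. By this rule 372 of the 244645 clusters of the 6 libraries lay on these genes, and 8 of the 10 genes had at least 1. The rule itself uses names and roles and no measured value.

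METTL3 is the catalytic subunit of the m6A writer and METTL14 is its RNA-binding partner. WTAP, VIRMA and RBM15 belong to the associated complex that places the writer on its RNAs. ALKBH5 removes the mark, the YTHDF proteins bind it in the cytoplasm and YTHDC1 binds it in the nucleus. IGF2BP3 is an RNA-binding protein with KH and RRM domains that is made in embryos and in many tumours, and the IGF2BP family has itself been described as a group of m6A readers. The transcripts of the methylation machinery are therefore RNAs on which contacts of IGF2BP3 are of interest.

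All libraries came from HCT116, a human colorectal carcinoma line, here carrying the Tet-OsTIR1-PURO genotype. The identity of the line was not checked, since crosslinked clusters give no marker levels for it. Cells were labelled with 4-thiouridine at 100 µM for 15 h and crosslinked with long-wave UV, which leaves T-to-C conversions at crosslinked uridines. RNA was trimmed with RNase I or RNase T1 first in the lysate and then on the beads, and each library is named below by the enzyme and by both concentrations in U/µL. The 5 libraries made with the antibody against IGF2BP3 were RNase I 0.05/0.05, RNase I 0.1/0.025, RNase I 0.05/0.025, RNase T1 1/1 and RNase T1 0.25/0.25. A control immunoglobulin (IgG) library was digested with RNase I at 0.1/0.025. Each condition had 1 library, so no difference between conditions could be tested against replicates, and every interval below covers counting error alone. The study's methods state that the RNase I 0.05/0.05 and RNase T1 1/1 libraries were electroeluted from the gel and that the other IGF2BP3 libraries were recovered from crushed gel, so on-bead RNase I dose, RNase T1 dose and gel recovery cannot be told apart. The study also found that the antibody partly recognises the paralogue IGF2BP2.

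Cluster reads per library ranged from 182448 with RNase T1 0.25/0.25 to 2362467 with RNase I 0.05/0.05, and all levels are given as CPM, counts per 1e+06 cluster reads of the library. The IgG library had 324 cluster reads in 25 clusters, none of them on the 10 genes, which is too few to give a background level for a single gene. CPM reflects both how much of a transcript the cells held and how much of it was crosslinked. No RNA abundance was measured in these files, so the amount of RNA and the contact per RNA cannot be told apart.

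Stretches of RNA under the strongest clusters are shown first, because they show where in each transcript these clusters lay. For each gene with a cluster, except VIRMA and YTHDF3, the cluster with most reads was taken from the RNase I 0.05/0.05 and the RNase T1 1/1 library. Up to 30 nt were read around the mode, a position reported with each cluster. The mode need not be the place of most reads or a crosslinked uridine. A stretch is therefore part of a cluster and does not mark the contact itself. Sequences are given 5′ to 3′ in the sense of the transcript with GRCh38 coordinates. Capitals mark CATT, CATA and CAGT, which are short CA-containing words of the kind that IGF2BP proteins contact, and GGAC, the core of the m6A consensus. GGAC may share its last base with the first base of another word.
METTL14, RNase I 0.05/0.05, chr4:118710429-118710458, plus strand: agaatgtcttagcgagccttgcttgCAGTt
METTL14, RNase T1 1/1, chr4:118714208-118714237, plus strand: gaaatattttcactCATTtactttcatcca
WTAP, RNase I 0.05/0.05, chr6:159755923-159755952, plus strand: aaatacaacacaatgatgtctgtataaatc
WTAP, RNase T1 1/1, chr6:159756135-159756160, plus strand: ataCAGTtttttccacCATAcatctg
ALKBH5, RNase I 0.05/0.05, chr17:18208979-18209008, plus strand: taaaCAGTgccagcccctgccatcccaaag
ALKBH5, RNase T1 1/1, chr17:18208878-18208907, plus strand: ctgttctccacttctcacctgccatccacg
YTHDF1, RNase I 0.05/0.05, chr20:63196426-63196455, minus strand: tgtaagtatccttaaaaacaaagcatctat
YTHDF1, RNase T1 1/1, chr20:63196349-63196378, minus strand: gacttCATAtttctcatccctttattgctt
YTHDF2, RNase I 0.05/0.05, chr1:28769441-28769470, plus strand: ttttgtctaggagaatataaCAGTgttacc
YTHDF2, RNase T1 1/1, chr1:28769708-28769737, plus strand: gaaagggCATTgcctttctttttacCATTa
YTHDC1, RNase I 0.05/0.05, chr4:68313885-68313914, minus strand: cgccaaaaatccacagctgaCAGTtgaatt
YTHDC1, RNase T1 1/1, chr4:68313527-68313556, minus strand: tCAGTcttcaatgacgagagcaatattaag

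All of the stretches shown lay in the 3′ UTR. The strongest VIRMA cluster, not shown, lay in the coding sequence with RNase I 0.05/0.05 (58 reads). The RNase I and RNase T1 stretches of a gene did not coincide in any of the 6 genes, although in WTAP, ALKBH5, YTHDF1 and YTHDF2 they fell within the same continuous site described below. RNase T1 cuts after G, and 74 of the 75 RNase T1 1/1 clusters and 20 of the 21 RNase T1 0.25/0.25 clusters on these genes ended in G, against 16 of 135 with RNase I 0.05/0.05. Over all clusters on protein-coding exons 94.8% ended in G with RNase T1 1/1 and 13.3% with RNase I 0.05/0.05.

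The 4 words were also counted over whole clusters on the transcript strand. With RNase I 0.05/0.05, CATT was found in 44.4% of the clusters of the m6A genes (95% Wilson interval 36.3 to 52.9, n = 135 clusters) and in 39.5% of all clusters on protein-coding exons. CAGT was found in 36.3% (28.7 to 44.7) and 34.9%, and CATA in 22.2% (16.0 to 29.9) and 23.4%. All 3 intervals held the share of all clusters. GGAC was found in 23.7% (17.3 to 31.5) of the clusters of these genes against 17.1% of all. For RNase I 0.1/0.025 the GGAC shares were 24.4% (16.2 to 34.9) and 14.8%, for RNase I 0.05/0.025 they were 20.6% (12.5 to 32.2) and 14.4%, and for RNase T1 1/1 they were 5.33% (2.09 to 12.9) and 5.48%. Clusters of different libraries often overlap, so these libraries do not sample separate sequences. A match is only a run of letters, and nothing here measured whether the adenosine was methylated.

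The readers held most of the reads. The 4 reader genes took between 63.5% and 70.8% of the reads of the 10 genes in the 5 IGF2BP3 libraries, and the writers took between 19.4% and 22.7%. Together the 10 genes held 1608 CPM with RNase I 0.05/0.05, 1615 CPM with RNase I 0.1/0.025, 1566 CPM with RNase I 0.05/0.025, 1476 CPM with RNase T1 1/1 and 1557 CPM with RNase T1 0.25/0.25. The exact Poisson intervals of these sums, from 1407 to 1548 CPM for RNase T1 1/1 and from 1557 to 1660 CPM for RNase I 0.05/0.05, did not overlap for that pair, and those of the 3 RNase I libraries overlapped each other.

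**Figure D1:**
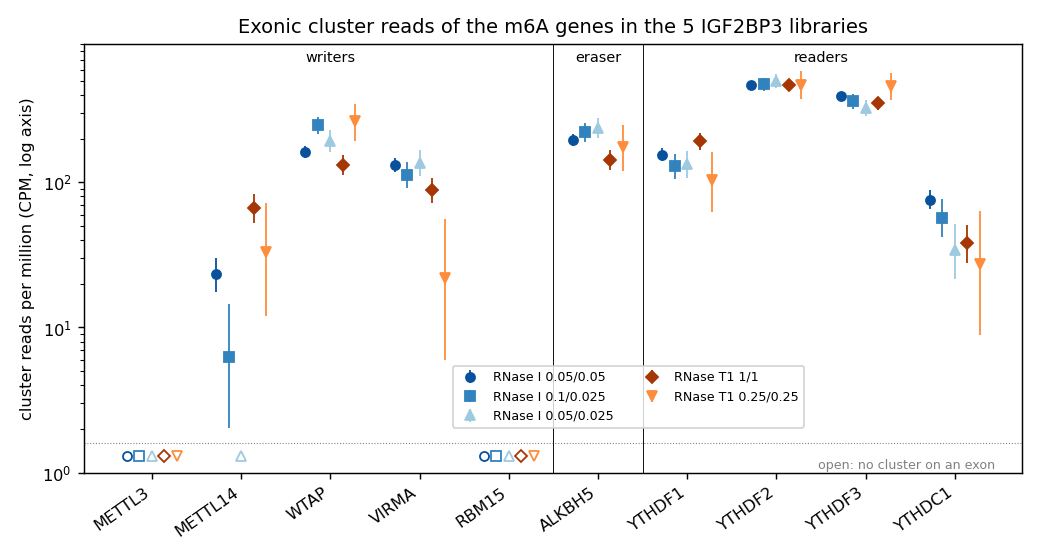
Cluster reads on exons of each m6A gene, in CPM on a log axis, with 1 point per IGF2BP3 library and exact 95% Poisson intervals for counting error. YTHDF2 and YTHDF3 stood highest in all 5 libraries, and METTL3 and RBM15 had no cluster on an exon in any (open points below the dotted line).

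A gene was called a target in a library, after the rule in the study's methods, if it carried a cluster above 10 CPM in which conversion events per read exceeded 0.5. The study does not state what its CPM is relative to, and here it is relative to the cluster reads of the library. The calls below may therefore differ from those of the study, which reports fewer targets with RNase T1 than with RNase I. With RNase I 0.05/0.05, 7 of the 10 genes were targets, against 46.9% of the 9353 protein-coding genes with a cluster in any IGF2BP3 library. The same 7 genes were targets with RNase I 0.1/0.025, against 45.6% of genes, and with RNase I 0.05/0.025, against 47.1%. With RNase T1 1/1, 8 of the 10 were targets, against 42.1%, and with RNase T1 0.25/0.25, 5 of the 10 were targets, against 29.3%. WTAP, ALKBH5, YTHDF3 and YTHDC1 were targets in all 5 libraries, against 21.2% of the 9353 protein-coding genes with a cluster in any library, a base that METTL3 and RBM15 would not enter, so that the matching counts are over 8 genes (4 of 8 here). A cluster in all 5 libraries was found for 7 of the 10 genes, against 33.8% of the protein-coding genes. The threshold of 10 CPM stood for 23.6 reads with RNase I 0.05/0.05 and for 1.82 reads with RNase T1 0.25/0.25, so a cluster of a few reads could pass in the shallow library.

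METTL3, on chromosome 14, had no cluster on an exon in any library and none in an intron on its own strand. The 9 clusters on the opposite strand within its bounds overlapped exons of TOX4, which runs into METTL3 from the other side. RBM15, on chromosome 1, had no cluster on a GENCODE exon either, but 20 clusters with 185 reads lay on its strand between annotated exons, from 110343320 to 110346171. They came from RNase I 0.05/0.05 (8 clusters, 91 reads, 38.5 CPM), RNase I 0.1/0.025 (5 clusters, 34 reads, 42.3 CPM) and RNase T1 1/1 (7 clusters, 60 reads, 51.8 CPM). No RBM15 cluster was called with RNase I 0.05/0.025 or RNase T1 0.25/0.25. The first gap between exons, which is 2848 nt long, held 17 of the 20 clusters, and the last gap of 658 nt held 3. Whether another annotation places an exon there was not examined. The rule on exons left these clusters out, and 1 cluster in each of the 3 libraries would have met both limits for a target.

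**Figure D2:**
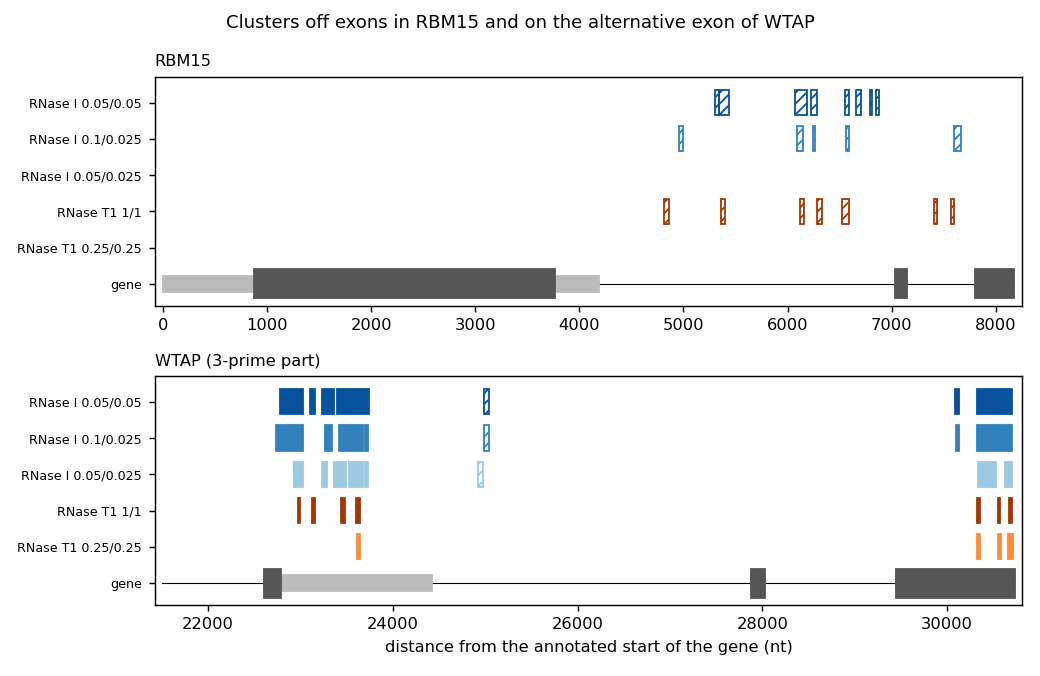
Clusters of each IGF2BP3 library against the exons of RBM15 and of the 3′ part of WTAP, by distance from the annotated start of the gene in nt (dark boxes, exons of the canonical transcript; light boxes, other annotated exons; filled boxes, clusters on an exon; hatched boxes, clusters off all exons). All 20 RBM15 clusters are hatched, and the WTAP clusters form a group on the light exon and another on the last exon.

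METTL14 was the lowest of the genes with clusters in the RNase I libraries but not in the RNase T1 libraries. It held 55 reads (23.3 CPM) with RNase I 0.05/0.05, 5 reads (6.22 CPM) with RNase I 0.1/0.025, none with RNase I 0.05/0.025, 77 reads (66.5 CPM) with RNase T1 1/1 and 6 reads (32.9 CPM) with RNase T1 0.25/0.25. Both RNase T1 values stood above all RNase I values. The interval of RNase T1 0.25/0.25, 12.1 to 71.6 CPM, overlapped those of RNase I 0.05/0.05 (17.5 to 30.3) and 0.1/0.025 (2.02 to 14.5). RNase I 0.05/0.05 over RNase T1 1/1 gave a ratio of 0.350 (exact interval 0.243 to 0.501), which placed METTL14 at percentile 8.75 of the genes with reads in both. All 17 METTL14 clusters touched its 3′ UTR, which at 5128 nt is the longest of the 10. They were thinly spread: the 8 clusters with RNase I 0.05/0.05 covered 7.78% of that UTR and none reached 10 CPM. A single stretch from 625 to 664 nt after the stop codon, at chr4:118710927-118710966, was found in both RNase T1 libraries and in no RNase I library. It held 14 reads with 20 conversion events (1.43 per read) in one and 6 reads with 8 events (1.33 per read) in the other, and it made METTL14 a target there.

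WTAP, the adaptor subunit that holds the writer in nuclear speckles, held 162 CPM with RNase I 0.05/0.05 (383 reads), 248 CPM with RNase I 0.1/0.025 (199 reads), 194 CPM with RNase I 0.05/0.025 (130 reads), 132 CPM with RNase T1 1/1 (153 reads) and 263 CPM with RNase T1 0.25/0.25 (48 reads). The levels of the enzymes overlapped. Of its 48 clusters, 47 touched a 3′ UTR, but these were not all the 3′ UTR of the canonical transcript. Over the 5 libraries, 27 clusters with 421 reads, or 46.1% of the gene's reads, lay outside the canonical exons, between 159748426 and 159749321 on chromosome 6. That stretch falls, in whole or in part, within the last exon of 3 other coding transcripts and an inner exon of 1 more, each with a coding end upstream of it or inside the same exon. The share of WTAP reads there was 46.7%, 43.7% and 56.9% in the RNase I libraries, 47.7% in RNase T1 1/1 and 16.7% (8 of 48 reads) in RNase T1 0.25/0.25.

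The WTAP reads on the shorter form had a second possible origin. An unannotated stretch on the minus strand of chromosome 6, with clusters between 51409184 and 51410278, holds an exact copy of 8 WTAP clusters, and a cluster was called at the copy in the same library for all 8, with the same read count each time. That stretch held 125 reads with RNase I 0.05/0.05 and 69 with RNase T1 1/1. Clusters with an exact copy made up 4.44% of WTAP reads with RNase I 0.05/0.05 and 41.8% with RNase T1 1/1. Which of the 2 places the reads came from cannot be told apart for those clusters. Without them WTAP held 155, 239, 183, 76.9 and 219 CPM in the library order given above. Longer clusters whose whole sequence did not recur stayed in. These values may thus still hold reads of the copy, chiefly in the RNase I libraries. The canonical 3′ UTR had no such copy, and its site from 291 to 687 nt after the stop codon was found in all 5 libraries at 64.8, 121, 83.5, 69.1 and 219 CPM, in the library order given above.

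VIRMA, the scaffold subunit, had most of its clusters in the coding sequence. It held 132 CPM with RNase I 0.05/0.05, 113 CPM with RNase I 0.1/0.025, 137 CPM with RNase I 0.05/0.025, 88.1 CPM with RNase T1 1/1 and 21.9 CPM (4 reads) with RNase T1 0.25/0.25. Coding clusters held 98.1% of its reads with RNase I 0.05/0.05 and 100% in both other RNase I libraries, but 56.9% with RNase T1 1/1, where 3 of 8 clusters touched a 3′ UTR. Over the 5 libraries 39 of 43 VIRMA clusters were coding (90.7%, Wilson 78.4 to 96.3), against 124 of 372 (33.3%, 28.7 to 38.3) for all 8 genes, VIRMA included. The same sites recur between libraries, and the 43 VIRMA clusters merged to 22 sites, so these intervals are too narrow. Coding sequence is 5439 of the 6478 nt of the canonical VIRMA transcript. It is 1740 of 2744 nt for YTHDF2 and 1371 of 6642 nt for METTL14. The part of this layout in the coding share was not tested. Coding clusters were also the majority for YTHDF2, 33 of 58 (56.9%), but 71.0% of its reads lay in the 3′ UTR. The 3 sites found in at least 4 libraries all lay in the coding sequence, at positions -2548 to -1868 relative to the end of the stop codon. With RNase T1 1/1, 3 clusters with 46 reads fell outside the canonical exons, at or between those coding sites, on exons of other transcripts of the gene, and 2 of these touched the 3′ UTR of such a transcript. The canonical 3′ UTR of 1017 nt had 1 cluster with RNase I 0.05/0.05, 1 with RNase T1 1/1 and none in the other libraries.

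ALKBH5, the demethylase, was a target in every library and had the most even conversion rate. Its level was 196 CPM with RNase I 0.05/0.05 (463 reads), 223 CPM with RNase I 0.1/0.025, 237 CPM with RNase I 0.05/0.025, 143 CPM with RNase T1 1/1 and 175 CPM with RNase T1 0.25/0.25 (32 reads). The RNase T1 libraries both stood below the RNase I libraries, by 1.37-fold (1.14 to 1.64) between RNase I 0.05/0.05 and RNase T1 1/1. Its 3′ UTR held 40 of its 41 clusters. A site from 342 to 807 nt after the stop codon was found in all 5 libraries and held 260, 101, 92, 89 and 32 reads, which was every ALKBH5 read of the RNase T1 0.25/0.25 library.

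Of the readers, YTHDF2 had the highest level of the 10 genes in all 5 libraries when all its clusters were counted, but part of its reads could not be assigned to it alone. The protein it encodes delivers methylated mRNAs to deadenylation and decay. It held 472 CPM with RNase I 0.05/0.05 (1115 reads), 475 CPM with RNase I 0.1/0.025 (382 reads), 502 CPM with RNase I 0.05/0.025 (337 reads), 466 CPM with RNase T1 1/1 (539 reads) and 471 CPM with RNase T1 0.25/0.25 (86 reads). On all clusters the highest level was 1.08 times the lowest, all 5 intervals overlapped, and the gene stood between percentiles 95.3 and 96.6 of the protein-coding genes in each library. The last 333 nt covered in its 3′ UTR formed a site from 489 to 821 nt after the stop codon, which ends 2 nt before the end of the transcript. That site held 193 CPM with RNase I 0.05/0.05, 225 CPM with RNase I 0.1/0.025, 258 CPM with RNase I 0.05/0.025, 244 CPM with RNase T1 1/1 and 384 CPM with RNase T1 0.25/0.25. It made up 81.4% of YTHDF2 reads in the last of these, and the RNase T1 1/1 stretch with CATT printed above lies within it.

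YTHDF2 has a processed copy on chromosome 14, annotated in part as the pseudogene YTHDF2P1, and the copy carried clusters in all 5 libraries. From the first cluster at 39215093 to the last at 39217139 it held 265 CPM with RNase I 0.05/0.05, 249 CPM with RNase I 0.1/0.025, 262 CPM with RNase I 0.05/0.025, 177 CPM with RNase T1 1/1 and 93.2 CPM with RNase T1 0.25/0.25. Of the 58 YTHDF2 clusters, 14 had an exact copy there, and those held 10.7% of the gene's reads with RNase I 0.05/0.05 and 34.3% with RNase T1 1/1. With RNase T1 1/1, the YTHDF2 clusters of 38 and 114 reads had copies of 37 and 113 reads. Reads of the gene and of the copy cannot be told apart at those clusters. Without them YTHDF2 held 422, 437, 488, 306 and 384 CPM in the library order given above. The highest level was then 1.59 times the lowest, and in both RNase T1 libraries YTHDF2 lay below YTHDF3. Only clusters whose whole sequence recurred were left out, which took 34.3% and 18.6% of reads in the RNase T1 libraries. In the RNase I libraries it took 10.7%, 8.12% and 2.97%, although the copy held more CPM there. The RNase I values may thus still hold reads of the copy, and the spread after this step does not compare the enzymes. No cluster of the last 3′ UTR site had an exact copy. The last stretch of clusters on the chromosome 14 copy, from 39217058 to 39217138, held 303 reads with RNase I 0.05/0.05, where the whole YTHDF2 site held 455. For RNase T1 1/1 these counts were 15 and 282, and for RNase T1 0.25/0.25 no cluster was called at that place of the copy and the YTHDF2 site held 70 reads.

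YTHDF3 was the next highest, with 392 CPM with RNase I 0.05/0.05 (926 reads), 363 CPM with RNase I 0.1/0.025, 327 CPM with RNase I 0.05/0.025, 350 CPM with RNase T1 1/1 and 460 CPM with RNase T1 0.25/0.25. It had more clusters than any other of the genes, 92 over coding sequence and 3′ UTR together, and its 3′ UTR is 3080 nt long. A site that began 15 nt before the end of the stop codon and ran to 450 nt after it was found in all 5 libraries, at 123, 142, 148, 110 and 208 CPM in the library order given above. Another site from 2169 to 2349 nt was also found in all 5, at 42.3, 46.0, 37.3, 74.3 and 82.2 CPM, and the third lay in the coding sequence.

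YTHDF1 held 155 CPM with RNase I 0.05/0.05 (366 reads), 129 CPM with RNase I 0.1/0.025, 134 CPM with RNase I 0.05/0.025, 192 CPM with RNase T1 1/1 (222 reads) and 104 CPM with RNase T1 0.25/0.25 (19 reads). The RNase T1 libraries gave both the highest and the lowest value. The site found in all 5 libraries, 209 to 398 nt after the stop codon, held 31.1 to 55.2 CPM in the RNase I libraries, 72.6 CPM with RNase T1 1/1 and 104 CPM with RNase T1 0.25/0.25, where it was the only cluster of the gene. None of the 52 YTHDF1 clusters had an exact copy elsewhere.

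YTHDC1, the nuclear reader, held 76.2 CPM with RNase I 0.05/0.05 (180 reads), 57.3 CPM with RNase I 0.1/0.025 (46 reads), 34.3 CPM with RNase I 0.05/0.025 (23 reads), 38.0 CPM with RNase T1 1/1 (44 reads) and 27.4 CPM with RNase T1 0.25/0.25 (5 reads). Its reads lay close to the stop codon. The first 20% of its 3712 nt 3′ UTR held 80% of them with RNase I 0.05/0.05, 91.3% with RNase I 0.1/0.025 and 100% in the other 3 libraries. The remaining reads lay before the stop codon, and no cluster was centred further downstream. No YTHDC1 site was found in all 5 libraries, and the site from 75 to 257 nt after the stop codon was found in 4.

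**Figure D3:**
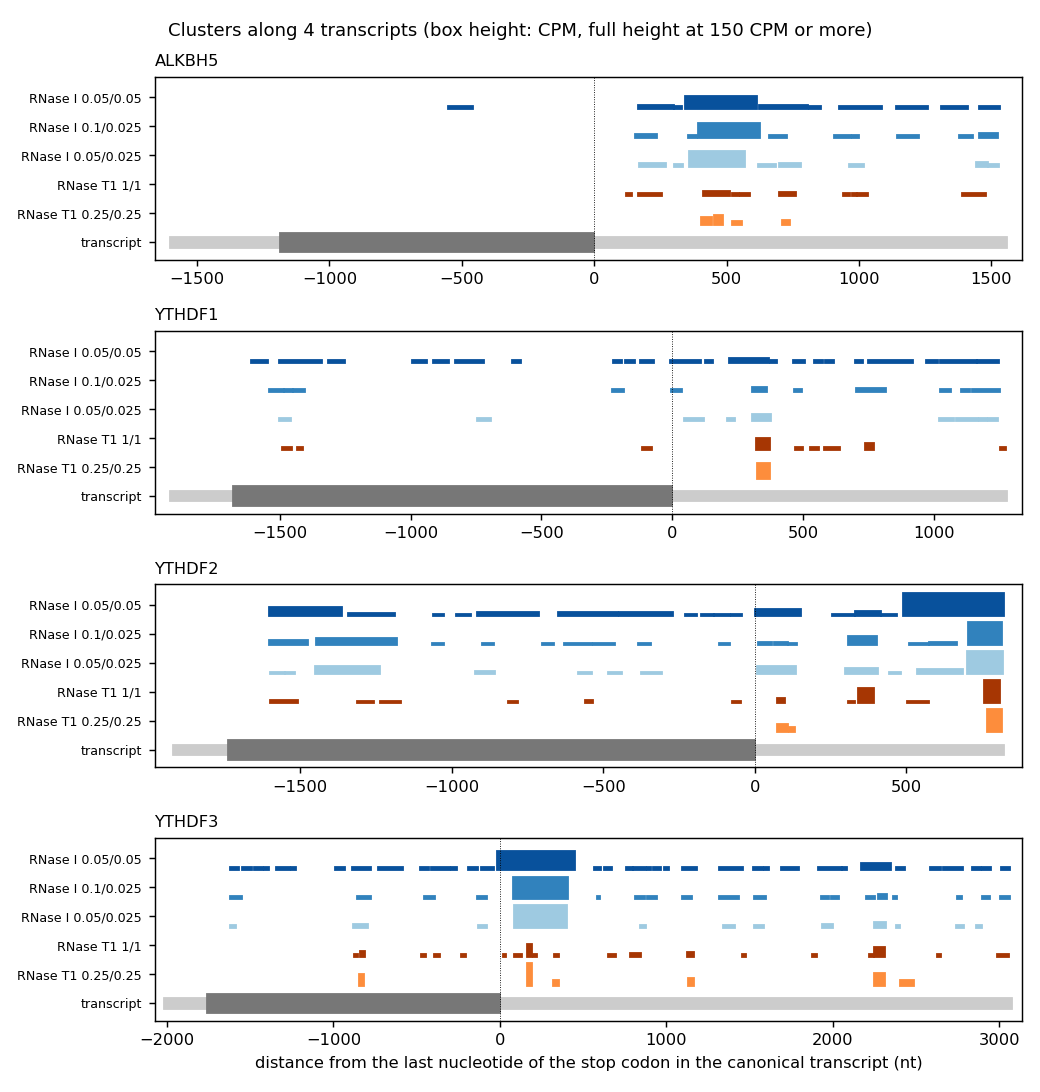
Clusters of the 5 IGF2BP3 libraries along the canonical transcripts of ALKBH5, YTHDF1, YTHDF2 and YTHDF3, by distance in nt from the last nucleotide of the stop codon (dark grey, coding sequence; light grey, UTRs). Box height is CPM, full at 150 CPM or more, with a least height for low clusters, and the YTHDF2 site at the end of the 3′ UTR reached full height in all 5 libraries.

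Per length, on the scale of CPM per kb of the canonical transcript, the order of the genes by their median over the 5 libraries was YTHDF2 (172), WTAP (92.1), YTHDF3 (71.3), ALKBH5 (62.0), YTHDF1 (42.0), VIRMA (17.5), YTHDC1 (6.10) and METTL14 (3.51). YTHDF2 ranged from 170 to 183 and did not overlap WTAP, at 62.8 to 125. YTHDF1, at 32.6 to 60.0, did not overlap VIRMA, at 3.38 to 21.2. All other neighbours in this order overlapped. The YTHDF2 values include the clusters with a copy. The value of WTAP counts reads of the shorter form against the length of the canonical one, and on canonical exons alone its median was 41.0 (32.8 to 104), which would place it after YTHDF1.

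The enzymes were compared in the pair of electroeluted libraries. The median log2 ratio of CPM, RNase I 0.05/0.05 over RNase T1 1/1, was 0.23 over the 8 genes with reads in both and -0.05 over 7106 protein-coding genes, with quartiles at -0.74 and 0.70. Past 2-fold in either direction were 2 of the 8 genes, METTL14 (higher with RNase T1) and YTHDC1 (higher with RNase I at a ratio of 2.00, only just past the limit), against 36.6% of genes. WTAP (1.23, 1.01 to 1.49), VIRMA (1.49, 1.19 to 1.89) and ALKBH5 (1.37) stood higher with RNase I beyond counting error, and YTHDF1 (0.81, 0.682 to 0.958) stood lower. YTHDF2 (1.01, 0.913 to 1.13) and YTHDF3 (1.12, 0.995 to 1.26) had intervals that included 1. Without the clusters that have an exact copy, the ratio was 2.01 (1.59 to 2.57) for WTAP and 1.38 (1.22 to 1.56) for YTHDF2. The median log2 ratio over the 8 genes was then 0.46, and 3 of the 8 passed 2-fold. A cluster was left out only where its whole sequence recurred, which is less likely for the longer RNase I clusters. The YTHDF2 copy held 625 reads with RNase I 0.05/0.05 and 205 with RNase T1 1/1, but 119 and 185 YTHDF2 reads were left out. For WTAP the copy held 125 and 69 reads, and 17 and 64 WTAP reads were left out. The shift in these ratios therefore cannot be read as a difference between the enzymes.

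**Figure D4:**
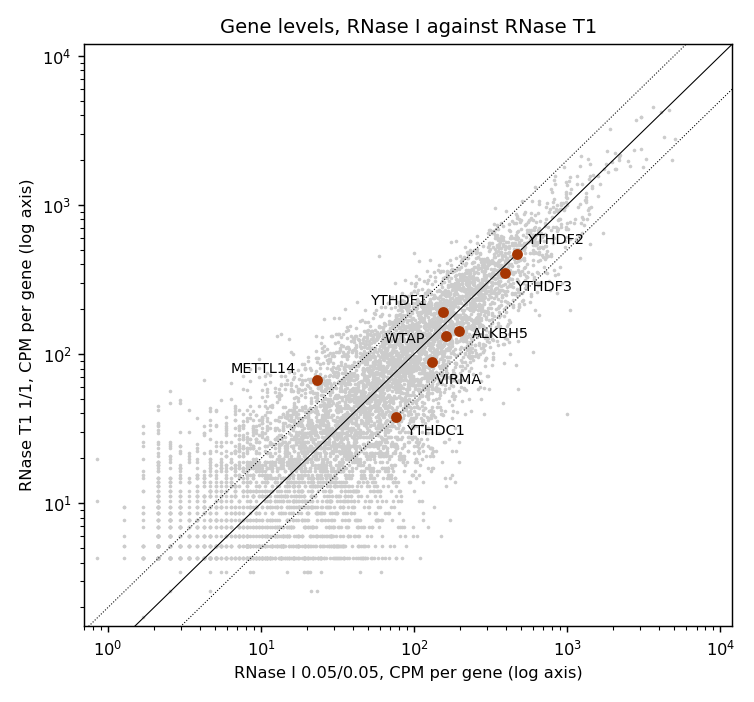
CPM per protein-coding gene in RNase I 0.05/0.05 (horizontal) and RNase T1 1/1 (vertical), both on log axes, with 1 grey point per gene and the 8 m6A genes with clusters in red. The solid line is equality and the dotted lines are 2-fold, and METTL14 and YTHDC1 are the red points past or on them.

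Within RNase I, the 0.1/0.025 over the 0.05/0.025 library, both from crushed gel, gave a median log2 ratio of -0.05 over 7 of the genes and 0.03 over 5503 genes. None of the 7 passed 2-fold, against 15.2% of genes, and only the interval of WTAP (ratio 1.28, 1.02 to 1.61) left out 1. RNase I 0.05/0.05 over 0.05/0.025 gave -0.06 over 7 genes and 0.18 over 5972 genes. There YTHDC1 alone passed 2-fold (2.22, 1.44 to 3.59), against 27.5% of genes. RNase T1 1/1 over 0.25/0.25 gave 0.23 over 8 genes and 0.06 over 3292 genes, but -0.29 over the 5 genes with at least 10 reads in both. VIRMA (4.02, 1.52 to 15.0) and METTL14 (2.02, 0.888 to 5.68) passed 2-fold, against 39.1% of genes. WTAP stood at 0.503 (0.361 to 0.710), just inside the limit in the other direction, and at 0.351 (0.239 to 0.523) without the clusters that have a copy.

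By feature, counting a cluster as 3′ UTR where it touched one, 3′ UTRs held 70.1% of the reads of the 10 genes in RNase I 0.05/0.05 (76 of 135 clusters, 56.3%, Wilson 47.9 to 64.4). The share of reads was 78.9% in RNase I 0.1/0.025 (54 of 78 clusters) and 78.2% in RNase I 0.05/0.025 (43 of 63). It was 84.8% in RNase T1 1/1 (56 of 75 clusters, 74.7%, 63.8 to 83.1) and 93.7% in RNase T1 0.25/0.25 (19 of 21). Coding sequence held all other reads, and no cluster was assigned to a 5′ UTR. The share was lowest in the deepest library, where 59 of the 135 clusters were coding. The study reports a preference of reads for 3′ UTRs in all of its libraries. The same shares over all genes are not given here, so these values are not particular to the m6A genes.

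Cover of the 3′ UTR was broader in the RNase I libraries for YTHDF1, YTHDF2, YTHDF3, ALKBH5 and WTAP, and not for the others. In YTHDF2 they covered 84.7% of it in RNase I 0.05/0.05, 59.3% in RNase I 0.1/0.025 and 66.8% in RNase I 0.05/0.025, against 27.8% in RNase T1 1/1 and 12.8% in RNase T1 0.25/0.25. In ALKBH5 these shares were 73.0%, 46.4%, 41.1%, 33.7% and 8.99%, and in YTHDF1 they were 70.8%, 33.2%, 30.9%, 18.6% and 3.83%. RNase I 0.05/0.05 covered more of the 3′ UTR than RNase T1 1/1 in 7 of the 8 genes, all but VIRMA, against 94.7% of 6288 protein-coding genes. For METTL14, VIRMA and YTHDC1 the RNase I 0.1/0.025 and 0.05/0.025 libraries covered 0 to 3.74% and RNase T1 1/1 covered 4.47%, 4.42% and 3.93%. RNase I 0.05/0.05 had 2362467 cluster reads and RNase T1 1/1 had 1157194, and the part of depth in this difference was not tested. The medians over all genes with 3′ UTR clusters were 23.2% and 7.82%.

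When overlapping clusters of the 5 libraries were merged, the genes held 128 sites. Of these 58 were found in 1 library, 28 in 2, 15 in 3, 17 in 4 and 10 in all 5. RNase I and RNase T1 shared 43 sites, 74 (57.8%) were called with RNase I alone, against 55.7% of the 81580 sites on protein-coding exons, and 11 (8.59%) with RNase T1 alone, against 12.6%. METTL14 had 5 of those 11 and VIRMA 3. The sites found in all 5 libraries, 7.81% of the 128 against 6.71% of all, were 3 in YTHDF3, 2 each in WTAP and YTHDF2, and 1 each in VIRMA, ALKBH5 and YTHDF1.

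Conversion events per read, which the target rule uses, were lower with RNase T1 on most of these genes. Over all clusters they were 0.633, 0.644 and 0.600 in RNase I 0.05/0.05, 0.1/0.025 and 0.05/0.025, and 0.511 and 0.547 in RNase T1 1/1 and 0.25/0.25. Over the clusters of the m6A genes they were 0.626, 0.663, 0.601, 0.464 and 0.486 in the same order. For 5 of the 7 genes with clusters in all 5 libraries (WTAP, YTHDF1, YTHDF2, YTHDF3 and YTHDC1) both RNase T1 values lay under all RNase I values, against 46.3% of 3162 genes.

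In YTHDF2 the rate was 0.606, 0.639 and 0.591 in the RNase I libraries and 0.412 and 0.395 in the RNase T1 libraries. ALKBH5 stayed at 0.650, 0.626, 0.610, 0.614 and 0.719. These rates set the calls: YTHDF2 had 3 clusters of more than 10 CPM with RNase T1 0.25/0.25, the largest at 384 CPM, but none passed 0.5 events per read and the gene was no target there. YTHDF1 (19 reads, 0.368 events per read) and VIRMA (4 reads, exactly 0.5) missed the call in that library in the same way.

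**Figure D5:**
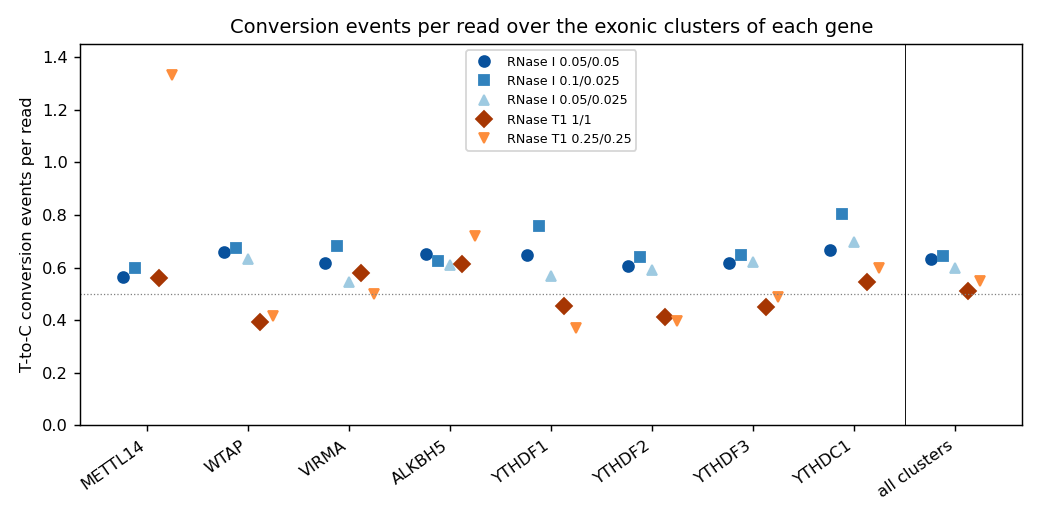
T-to-C conversion events per read over the exonic clusters of each m6A gene, with all clusters of the library at the right, and 1 point per IGF2BP3 library. The dotted line is the limit of 0.5 in the target rule, and YTHDF2 lies at 0.591 or above with RNase I and at 0.412 or below with RNase T1.

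The 12 other genes of m6A biology on a second list gave a mixed picture. Of these, 11 had a cluster in at least 1 IGF2BP3 library and 9 were a target in at least 1. No share of all genes is given for either count, so neither can be called high or low. In all 5 libraries 6 were targets, against 21.2% of the 9353 protein-coding genes with a cluster in any IGF2BP3 library. YTHDC2, a reader with a helicase domain, had no cluster and would not enter that base. The highest were HNRNPC, a nuclear protein whose access to RNA m6A can alter, and CBLL1, a subunit of the writer's associated complex. HNRNPC held 456, 485, 406, 472 and 586 CPM in the library order given above, and CBLL1 held 372, 499, 417, 398 and 345 CPM. On all clusters both stood near YTHDF2. Exact copies elsewhere were not searched for the clusters of this second list. The demethylase FTO held 146, 107, 112, 152 and 71.3 CPM. The lowest with clusters were PCIF1, which methylates the cap-adjacent adenosine, and METTL5 and ZCCHC4, which methylate ribosomal RNA. None of these 3 had more than 2 clusters or 33 reads in a library. By library 8, 7, 9, 8 and 6 of the 12 were targets, against 46.9%, 45.6%, 47.1%, 42.1% and 29.3% of those 9353 genes.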

How the data were processed

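Each library was deposited by the authors as 1 table of clusters, each with its read count, its counts of T-to-C conversions and of unconverted events, and a mode score given as a fraction, which entered no result. Per the labels and methods, the authors used bcl2fastq 2.20.0.422, extracted molecular identifiers and later removed duplicates with UMI-tools 1.1.1, trimmed with Trimmomatic 0.30, mapped to GRCh38.p13 with Bowtie 0.12.7 and called clusters with PARalyzer. Every deposited cluster had at least 2 reads and 2 conversion locations, so the absence of a cluster does not set a level of 0. How reads with several placements were treated is not given in the sources used here.

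Clusters were assigned to GENCODE 44 exons on the same strand (1 nt of overlap or more), and CPM is reads per 1e+06 cluster reads of the library. No cluster of the 10 genes overlapped an exon of another gene on its strand. Each sequence of the 372 clusters equalled GRCh38 at its stated place, and exact copies of the whole cluster sequence elsewhere on the main chromosomes were counted. The canonical transcript is the Ensembl one. A cluster that touched a 3′ UTR of a protein-coding transcript was counted there, and otherwise in coding sequence if it touched any. Intervals are 95%: exact Poisson for levels, exact binomial for ratios, Wilson for shares. They cover counting error only. With 1 library per condition no test between conditions was run. The gene lists and the comparisons were chosen with earlier results of these data known. Named genes were the 10 genes, with the highest and lowest of a second list, and FTO was added after its values were seen. Scripts used Python 3.11.15, pandas 2.3.3 and scipy 1.17.1 and were checked on simulated clusters.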

Additional observations from a re-analysis of the deposited data

Results flagged for a closer look

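The 20 clusters on the RBM15 strand between its annotated exons were noted because they lie outside every exon of the annotation and so outside the counts above. The IgG library, with 25 clusters in all, is too small to give a background for them. They held 185 reads in 3 of the 5 IGF2BP3 libraries with 0.595 conversion events per read, and they merged to 12 sites. They were called in the 3 deepest libraries, and no cluster of RBM15 was called in the others.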

How the results depend on the processing

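Of the 124 alternative values, 96 stayed within 1.5 times the count or within the counting interval. Targets among the 10 genes, in the library order RNase I 0.05/0.05, 0.1/0.025, 0.05/0.025, RNase T1 1/1 and 0.25/0.25, were 0, 0, 0, 0 and 0 when conversions had to exceed 0.5 of conversion and non-conversion events together. They fell to 3 with more than 0.75 events per read in RNase I 0.05/0.05 and in both RNase T1 libraries. With RNase T1 1/1 they were 4 with more than 20 CPM and 4 with at least 20 reads. With RNase T1 0.25/0.25 they were 0 with at least 20 reads and 8 with more than 0.25 events per read. Canonical exons alone gave 1532, 1507, 1455 and 1373 CPM in the first 4 libraries, where WTAP reads of the shorter form drop out and, with RNase T1 1/1, also 46 VIRMA reads. Without clusters that have an exact copy elsewhere, chosen after seeing the data, the sum was 1551 CPM with RNase I 0.05/0.05 and 1261 CPM with RNase T1 1/1, and the number of targets was unchanged in all 5. The median log2 ratio of RNase I 0.05/0.05 over RNase T1 1/1 was then 0.46, and those of the other 3 comparisons stayed within counting error. This step left out short RNase T1 clusters more readily than long RNase I clusters, so its values do not compare the enzymes. The median log2 ratio of RNase I 0.05/0.05 over 0.05/0.025 was 0.049 on canonical exons and -0.24 after centring on all genes, and that of RNase T1 1/1 over 0.25/0.25 was -0.29 with at least 10 reads in both, where METTL14, VIRMA and YTHDC1 drop out. With coding sequence first, the 3′ UTR share was 60.6% with RNase I 0.05/0.05. The median over clusters gave 0.658 events per read with RNase I 0.05/0.05 and 0.550 with RNase T1 1/1. No paired analysis was possible because each condition had 1 library. RNase T1 0.25/0.25, with 284 reads on the 10 genes, limits the count of targets in all 5 libraries, which is 4 with it and 7 without it. The share of all protein-coding genes is not given under the other limits or without that library. Whether these genes move differently from all genes was therefore not tested.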
